A study of Mus musculus with 6 samples.

Results

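The acute-phase and prostaglandin-nitric oxide genes described here are Saa1, Saa2, Saa3, Lcn2, Hp, Orm1, Steap4, Nos2, Ptgs2 and Ptges, 10 of the 55416 genes in the deposited expression table. They were chosen by their gene symbols, as secreted acute-phase proteins and enzymes that inflammatory signals switch on, and they were selected on their levels in these same libraries, in which replicate 2 of both groups stood above the others. That contrast is therefore described below with every value and without a test. RNA sequencing had been done on primary mouse chondrocytes, the cells that make and maintain cartilage matrix. The siNC group (3 libraries, labelled WT) received a control siRNA. The siPKM2 group (3 libraries) received an siRNA named for PKM2, an isoform of pyruvate kinase, the last enzyme of glycolysis. The siPKM2 libraries carry that name in their titles, while their genotype entries read PKM2, PKM3 and PKM4 knockdown for replicates 1, 2 and 3. The labels name knee joints of neonatal mice as the source, the study's supplementary methods also describe cells from adult mice, and no strain, sex or inflammatory stimulus is given for either group. An siRNA lowers a transcript for a limited time in the cells it enters, so each group is a transfected culture and not a genetic line. Nothing in the labels says whether the replicate numbers stand for mice, preparations or days, so the p-values measure only the spread between these libraries.

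Acute-phase genes are the genes whose products the liver, and many connective tissue cells, release when interleukin-6, interleukin-1 or bacterial products signal through STAT3, NF-kB and C/EBP factors. In cartilage the same signals induce cyclooxygenase-2 and inducible nitric oxide synthase, whose products, prostaglandin E2 and nitric oxide, are known for lowering matrix synthesis and promoting its breakdown. Lipocalin-2 and serum amyloid A are made by chondrocytes themselves in inflamed joints.

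Promoter sequences are shown because they give the reader the DNA that lies in front of genes which moved together across the libraries. RefSeq windows (GRCm38.p6) of 300 bases, from 250 before the annotated start to 50 after it, were at hand for 7 of the 10 genes, and those of Hp, Nos2 and Orm1 were not used here. The C/EBP core, written TTNNGCAA and searched on both strands, was present in 6 of the 7 windows, against 10.8% of 32851 RefSeq promoter windows. The genes were chosen as ones that inflammatory signals, among them C/EBP factors, switch on, so nothing is read from this contrast. A match is a description of letters and not evidence of binding. The stretches around these 6 matches are given 5′ to 3′ in the direction of the gene, with the match in capitals and 20 bases on each side. They lie at chr7:46743135-46743182 (minus strand), chr7:46751630-46751677 (plus), chr7:46715748-46715795 (minus), chr2:32387928-32387975 (minus), chr1:150099942-150099989 (plus) and chr5:7960365-7960412 (plus).
Saa1: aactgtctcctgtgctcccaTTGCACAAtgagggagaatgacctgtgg
Saa2: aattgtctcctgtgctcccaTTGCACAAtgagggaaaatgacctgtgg
Saa3: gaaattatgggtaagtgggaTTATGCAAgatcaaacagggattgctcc
Lcn2: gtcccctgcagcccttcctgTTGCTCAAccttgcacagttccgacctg
Ptgs2: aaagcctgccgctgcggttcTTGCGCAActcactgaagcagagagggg
Steap4: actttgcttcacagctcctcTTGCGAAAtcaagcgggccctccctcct

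The Saa1 and Saa2 matches lie at -182 to -175 and -183 to -176, counted from the start, in windows that were 95.3% identical, so they are not independent. The Saa3 window was 46.5% identical to that of Saa1, and its match lies closer to the start, at -99 to -92. The match of Ptgs2 lies at -69 to -62, that of Steap4 at -87 to -80 and that of Lcn2 at -216 to -209. The Ptges window (chr2:30903248-30903547, minus strand) held none of the motifs searched. The windows of Ptges and Lcn2 lie inside the gene spans given below, so starts nearer the upstream ends of those spans were not searched.

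Steap4 was the gene whose window also held other motifs. It had a STAT core (TTCNNNGAA, 8.3% of all windows) at -116 to -108, and the NF-kB consensus (4.51% of all windows) at -250 to -241 and again at -226 to -217, and none of these matches overlapped. The AP-1 core (TGANTCA, 7.81% of all windows) was found in 0 of the 7 windows. The whole windows of Saa3 (chr7:46715627-46715926, minus strand), the most abundant of these transcripts in replicate 2, of Ptgs2 (chr1:150099781-150100080, plus strand) and of Steap4 (chr5:7960222-7960521, plus strand) are given 5′ to 3′, with every motif match in capitals.
Saa3: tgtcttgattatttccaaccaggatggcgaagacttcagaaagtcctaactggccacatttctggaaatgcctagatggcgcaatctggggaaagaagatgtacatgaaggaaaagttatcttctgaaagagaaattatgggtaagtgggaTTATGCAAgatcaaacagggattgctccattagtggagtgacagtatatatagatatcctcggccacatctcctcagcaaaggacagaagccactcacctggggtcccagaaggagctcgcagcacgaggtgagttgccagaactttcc
Ptgs2: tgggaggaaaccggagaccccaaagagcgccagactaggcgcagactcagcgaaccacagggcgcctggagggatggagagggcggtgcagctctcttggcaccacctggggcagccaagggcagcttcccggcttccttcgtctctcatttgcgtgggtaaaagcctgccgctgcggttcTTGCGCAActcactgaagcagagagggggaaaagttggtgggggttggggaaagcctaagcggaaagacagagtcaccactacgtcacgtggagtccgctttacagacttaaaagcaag
Steap4: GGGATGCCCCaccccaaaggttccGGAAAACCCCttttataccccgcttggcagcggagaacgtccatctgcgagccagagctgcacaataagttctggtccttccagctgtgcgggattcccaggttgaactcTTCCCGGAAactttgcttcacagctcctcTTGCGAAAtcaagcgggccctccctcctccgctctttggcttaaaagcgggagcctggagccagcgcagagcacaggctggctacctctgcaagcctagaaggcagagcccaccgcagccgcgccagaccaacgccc

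**Figure D1:**
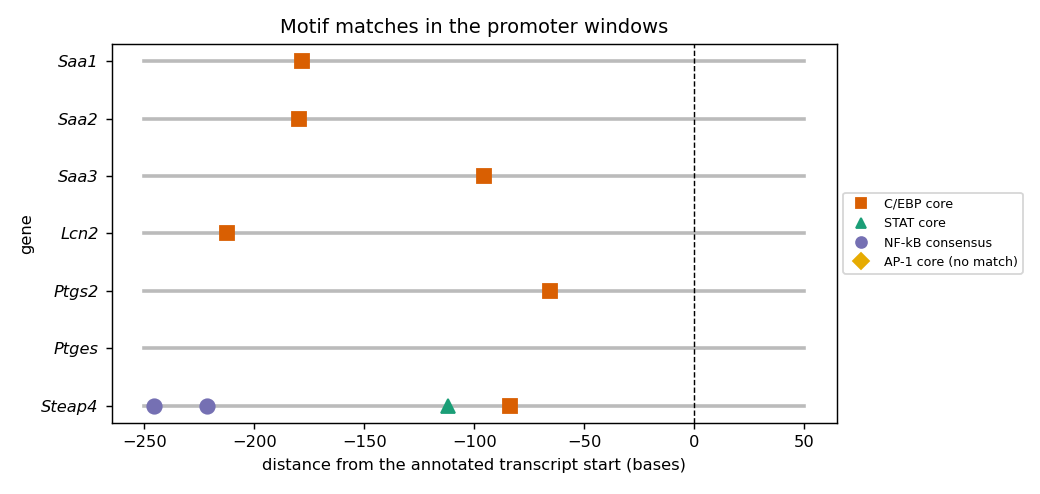
Positions of motif matches in the promoter windows of 7 genes, as the distance in bases from the annotated transcript start (dashed line), with 1 grey line per window and 1 symbol per match. A C/EBP core (square) is seen in 6 windows, between -216 and -62, and Steap4 alone carries STAT and NF-kB matches.

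The libraries held between 22316996 and 25691029 counts each, and 28059 genes had a count. Pkm, the targeted gene, stood at 1654, 2209 and 1293 TPM (the deposited level, corrected for transcript length and scaled to a fixed total per library) in siNC replicates 1, 2 and 3, and at 245, 428 and 231 TPM in siPKM2. Knockdown of the gene was thus seen in all 3 siPKM2 libraries. These levels are for the whole gene and do not tell its isoforms apart. On the first principal component of all genes tested (54.2% of the variance), both replicate 2 libraries lay apart from the other 4. They stood at 55.76 in siNC and 66.29 in siPKM2. Replicates 1 and 3 lay at -54.68 and -47.83 in siNC and at -12.2 and -7.34 in siPKM2. This component thus also set the groups apart in replicates 1 and 3. Results that rest on replicate 2 are therefore given with and without it.

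The 10 genes together made up 3.17% of all TPM in siNC replicate 2 and 2.99% in siPKM2 replicate 2. In the other 4 libraries their share lay between 0.00601% and 0.0285%. Saa3 was the most abundant transcript of all genes in both replicate 2 libraries, and Lcn2 was rank 5 in siNC replicate 2 and rank 3 in siPKM2 replicate 2. In the other libraries Saa3 ranked between 9487 and 14092. Within the replicate 2 library of each group, the order of TPM ran from Saa3 through Lcn2, Hp and Steap4 to a middle group of Nos2, Ptges and Ptgs2, and then to Saa2, Saa1 and Orm1. The places of Nos2, Ptges and Ptgs2 were not the same in both groups, with Nos2 highest of the 3 in siNC and lowest of the 3 in siPKM2.

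**Figure D2:**
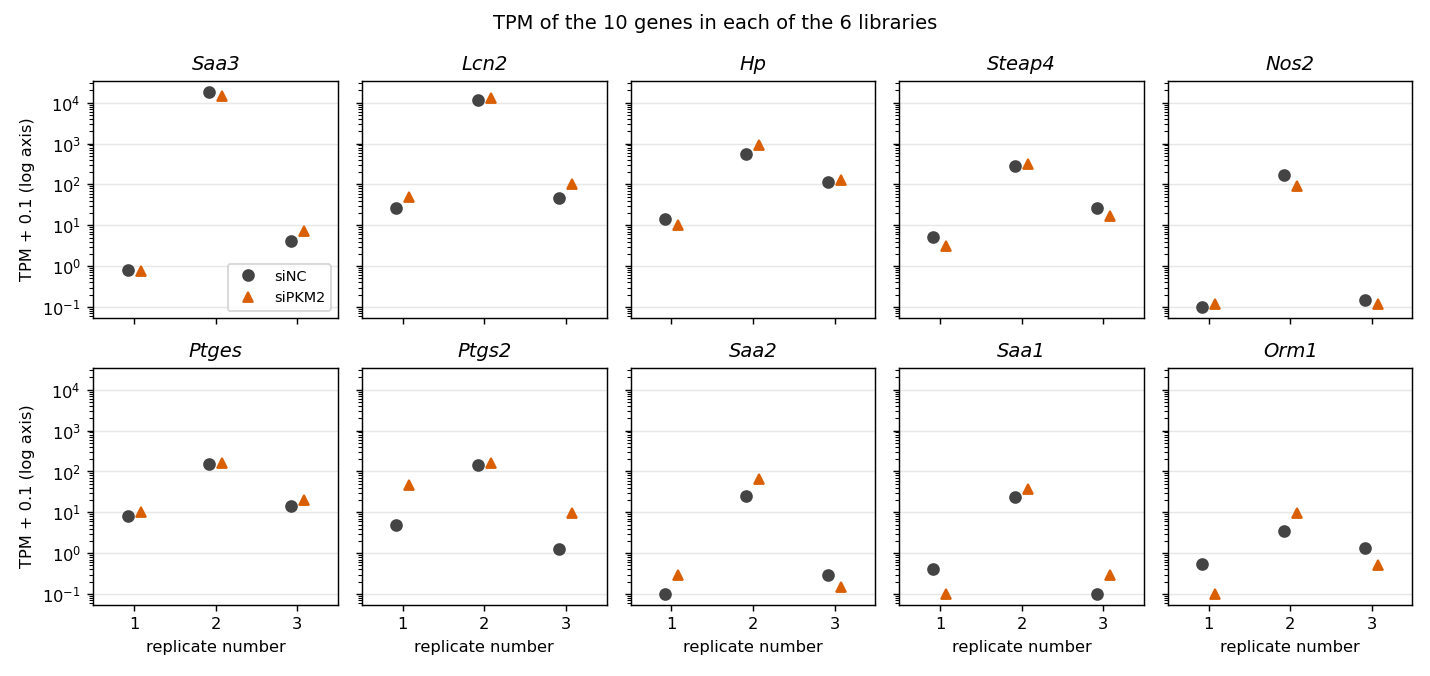
TPM of each of the 10 genes by replicate number, plotted as TPM + 0.1 on a log axis, with circles for siNC and triangles for siPKM2 and 1 library per point. Replicate 2 is the highest library of its group in every panel, with Saa3 near 18530 TPM in siNC and 14840 TPM in siPKM2, and siPKM2 replicate 1 of Ptgs2, at 47.7 TPM, lies between its siNC counterpart (4.73 TPM) and the replicate 2 libraries.

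Saa1, Saa2 and Saa3 encode the serum amyloid A proteins, small apolipoproteins carried on high-density lipoprotein particles. Saa1 and Saa2 are the classical plasma forms, and Saa3 is the form made outside the liver in the mouse. They lie near each other on chromosome 7 of GRCm38, with Saa3 at 46711998 to 46715700, Saa1 at 46740497 to 46742980 and Saa2 at 46751790 to 46754313. Saa3 stood at 0.70, 18530 and 4.08 TPM in siNC replicates 1, 2 and 3 and at 0.68, 14840 and 7.04 TPM in siPKM2. Both replicate 2 libraries were high, and replicates 1 and 3 were close to nothing in both groups. In counts, replicate 2 stood 7469-fold above replicates 1 and 3 together in siNC (exact 95% counting interval 4933 to 11920, 22 counts in the lower pair). In siPKM2 the ratio was 3734-fold (2659 to 5425, 33 counts in the lower pair). These intervals, and the others below, cover counting error only.

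Saa1 and Saa2 were likewise highest in replicate 2 of both groups, at far lower levels there than Saa3. Saa2 stood at 0, 25.6 and 0.20 TPM in siNC and at 0.19, 65.4 and 0.05 TPM in siPKM2. Saa1 stood at 0.31, 24.2 and 0 TPM in siNC and at 0, 36.9 and 0.20 TPM in siPKM2. Outside replicate 2 neither gene had more than 2 counts in any library, which is under the 3 counts taken as the floor. The ratio of replicate 2 to replicates 1 and 3 together was 160-fold for Saa1 in siNC (exact 95% counting interval 43.5 to 1329) and 464-fold in siPKM2 (82.5 to 18380). For Saa2 it was 385-fold in siNC (68.3 to 15280) and 348-fold in siPKM2 (95.8 to 2884). The Saa1 and Saa2 transcripts were 93.9% identical, against 60.2% for Saa1 and Saa3. Their deposited counts in replicate 2 were fractional, 164.79 and 199.22 in siNC and 274.54 and 413.48 in siPKM2, while the sums of both genes came to 364.01 and 688.02. Of 560 windows of 50 bases in the Saa1 transcript, 74 (13.2%) were also found in that of Saa2. Reads appear to have been divided between the copies, and the split between Saa1 and Saa2 is uncertain to an extent that was not measured. Of the same 560 windows, 9 (1.61%) were found in the Saa3 transcript. The deposited Saa3 counts were fractional too, at 84955.99 in siNC replicate 2 and 73091.98 in siPKM2 replicate 2. Some reads may thus have been shared with Saa3, and the part of the low Saa1 count that this makes up was not measured.

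Lcn2 encodes lipocalin-2, which binds iron-loaded bacterial siderophores, and lies at chromosome 2, 32384633 to 32388252. It stood at 26.3, 11620 and 46.8 TPM in siNC and at 48.6, 13100 and 101 TPM in siPKM2. Unlike Saa3, Lcn2 was well measured in every library, with at least 310 counts. Replicate 2 was again far above the others, by 8.19 in siNC and 7.45 in siPKM2 on the scale of log2(CPM + 0.5), where CPM is the count scaled to the library's size with TMM factors. Within each of the 3 replicate numbers the siPKM2 library was the higher one.

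Hp encodes haptoglobin, which captures free haemoglobin, and lies at chromosome 8, 109575128 to 109579172. It stood at 14.4, 557 and 112 TPM in siNC and at 9.80, 902 and 129 TPM in siPKM2. Replicate 2 was highest in both groups, and replicate 3 also stood well above replicate 1, by a CPM ratio of 6.96 in siNC and 12.6 in siPKM2. Hp therefore separated all 3 numbers in the same order in both groups. Orm1, the gene of the plasma carrier protein orosomucoid (chromosome 4, 63344560 to 63348163), was the least abundant in both replicate 2 libraries, at 0.43, 3.42 and 1.22 TPM in siNC and 0, 9.51 and 0.40 TPM in siPKM2. Its counts were 4, 27 and 9 in siNC and 0, 81 and 3 in siPKM2, so its levels outside replicate 2 are poorly determined. The ratio of replicate 2 to replicates 1 and 3 together was 4.02-fold in siNC (exact 95% counting interval 2.0 to 8.48) and 45.5-fold in siPKM2 (15.0 to 225). Orm1 has close copies in Orm2 and Orm3, and reads may have been divided among them, since its count in siNC replicate 2 was deposited as 26.96.

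Steap4 encodes a membrane metalloreductase that reduces iron and copper, and lies at chromosome 5, 7960457 to 7982213. It stood at 4.94, 290 and 26.5 TPM in siNC and at 3.07, 324 and 16.7 TPM in siPKM2. Like Hp, it was ordered replicate 2, 3, 1 in both groups, with replicate 3 above replicate 1 by a CPM ratio of 4.88 in siNC and 5.25 in siPKM2. In siPKM2 its level was lower in replicates 1 and 3 and slightly higher in replicate 2.

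Nos2 encodes the inducible nitric oxide synthase, which makes nitric oxide from arginine, and lies at chromosome 11, 78920787 to 78960254. It stood at 0, 169 and 0.05 TPM in siNC and at 0.02, 90.2 and 0.02 TPM in siPKM2. It was close to all or none: 10069 counts in siNC replicate 2 and 5873 in siPKM2 replicate 2, against 3 or fewer in each of the other 4 libraries. The ratio of replicate 2 to replicates 1 and 3 together was 6492-fold in siNC (exact 95% counting interval 2221 to 31490, 3 counts in the lower pair). In siPKM2 it was 4951-fold (1370 to 40890, 2 counts in the lower pair).

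Ptgs2 encodes cyclooxygenase-2, which makes prostaglandin H2 from arachidonic acid, and lies at chromosome 1, 150100031 to 150108227. It stood at 4.73, 148 and 1.18 TPM in siNC and at 47.7, 161 and 9.32 TPM in siPKM2. The replicate 2 libraries of both groups were alike and high, and in replicates 1 and 3 the siPKM2 libraries stood well above their siNC counterparts. Replicate 2 exceeded the others by 5.72 in siNC but by 2.84 in siPKM2 on the log2(CPM + 0.5) scale. Ptgs2 also ran against Hp and Steap4 between the lower libraries, since replicate 3 was below replicate 1, with CPM ratios of 0.228 in siNC and 0.190 in siPKM2.

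Ptges encodes microsomal prostaglandin E synthase-1, which turns prostaglandin H2 into prostaglandin E2, and lies at chromosome 2, 30889471 to 30929863. It stood at 7.93, 156 and 14.0 TPM in siNC and at 9.90, 161 and 19.9 TPM in siPKM2. In replicate 2 both prostaglandin enzymes thus had nearly equal TPM. Ptges showed a smaller difference between numbers than Ptgs2 in siNC, with replicate 2 above the others by 3.81 in siNC and 3.40 in siPKM2 on the log2(CPM + 0.5) scale.

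All 6 of the genes that passed edgeR's filter on low counts (Saa3, Lcn2, Hp, Steap4, Ptgs2 and Ptges) were more than 2-fold higher in replicate 2 than in replicates 1 and 3 in both groups, as were 3.59% of all 15269 genes tested. The genes were selected on this difference, so nothing is read from the count. Saa1, Saa2, Nos2 and Orm1 did not pass that filter, since they were low in the other 4 libraries.

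Chondrocyte markers moved the other way with the same libraries. The summed TPM of 15 chondrocyte markers was 20610, 4655 and 22390 in siNC replicates 1, 2 and 3, and 18210, 6236 and 18550 in siPKM2. Of the 15, 13 were more than 2-fold lower in replicate 2 in both groups, as were 257 of all 15269 genes tested. Col2a1, the cartilage collagen, stood at 3015 and 3847 TPM in replicate 2 against 8902 to 11900 elsewhere. Each library thus held the defining markers of its labelled cell type. In bulk RNA, fewer cells of a type and less RNA per cell cannot be told apart.

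Markers of other cell types that a joint culture could hold were read in the same libraries. The sum of 12 macrophage markers was 99.7 TPM in siNC replicate 2 and 59.2 in siPKM2 replicate 2, against 10.8 to 21.4 in the others, and 92.8 and 53.4 TPM of the former came from Cd68. Ptprc, Adgre1, C1qa and Itgam lay at or below 0.04 TPM in both replicate 2 libraries. Of the 12, 4 passed the filter on low counts, and 1 of these was more than 2-fold higher in replicate 2 in both groups. The 10 neutrophil markers summed to 2.62 and 12.6 TPM in replicate 2 against 0.11 to 1.97 elsewhere, so their sum was highest there in both groups. None of the 10 passed the filter. Ly6g was at 0 in every library, the only 1 of the 10 without a count. The hepatocyte marker Alb lay between 0.85 and 1.23 TPM, and the 8 hepatocyte markers summed to 45.4 and 121 TPM in replicate 2 against 7.73 to 23.4 elsewhere, most of it Trf, the gene of transferrin. The 9 fibroblast markers summed to 1012 to 2750 TPM, and the replicate 2 values of 2147 and 2475 lay inside that range. The 6 endothelial markers summed to 3.15 TPM at most. The part of these cell types in the levels of the 10 genes was not tested.

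**Figure D3:**
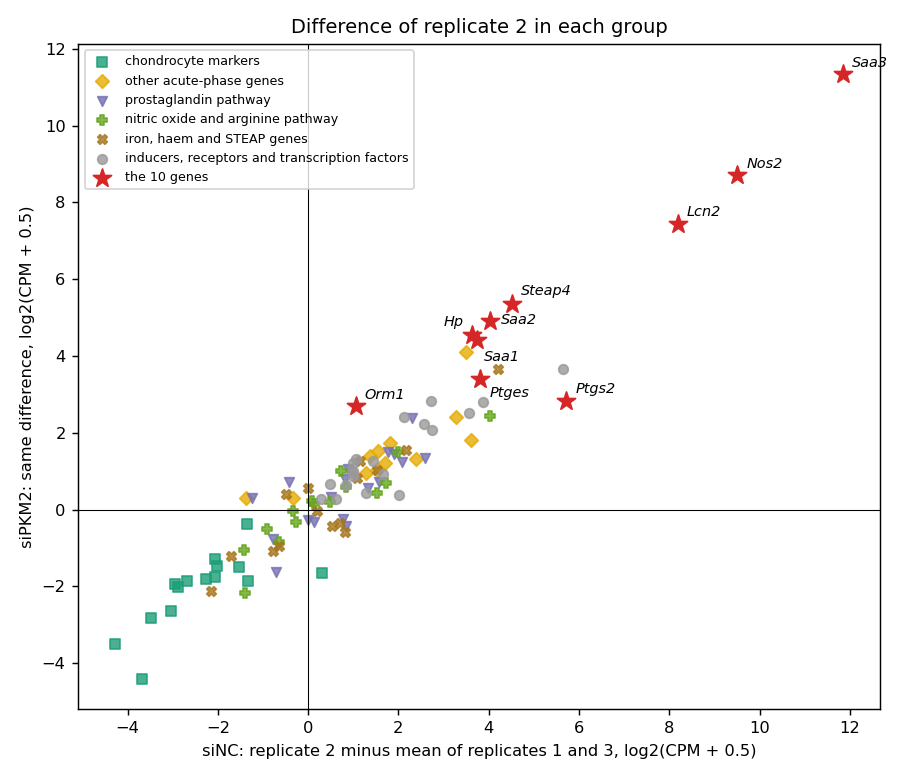
Replicate 2 minus the mean of replicates 1 and 3 as a difference of log2(CPM + 0.5), for siNC on the horizontal and siPKM2 on the vertical axis, with 1 point per gene and stars for the 10 genes. Saa3 lies at 11.85 and 11.34, chondrocyte markers lie mostly below 0 on both axes, and Ptgs2 lies lower on the siPKM2 axis (2.84) than on the siNC axis (5.72).

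Whether the knockdown altered these genes was asked by comparing siPKM2 with siNC. In edgeR's quasi-likelihood test over all 6 libraries, with a call at a fold over 2 and a Benjamini-Hochberg adjusted p under 0.05, none of the 6 tested genes was called, nor was any of the 15269 genes (0.0%). At an unadjusted p under 0.05 there were 2690 genes, and DESeq2 called 442. Hp, Ptgs2 and Steap4 were not among the DESeq2 calls, and for Saa3, Lcn2 and Ptges DESeq2 gave no adjusted p. The errors were wide: the log2 fold change of Ptgs2 was 0.59 with an SE of 1.68, and that of Saa3 was -0.27 with an SE of 3.45. Adjusted p-values of the 6 genes lay between 0.876 and 0.979.

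The replicate numbers were taken to pair the libraries, an assumption drawn from correlations in these same data and not from the labels. With the number as a block the errors became far smaller. Of the 15269 genes, 5.83% were then called, 2.65% higher and 3.18% lower in siPKM2, but again none of the 6. Without the threshold on the fold 23.1% of all genes had an adjusted p under 0.05, and still none of the 6 did. Lcn2 came closest, at a log2 fold change of 0.72 (SE 0.195, adjusted p 0.0505), followed by Ptges at 0.38 (SE 0.12, adjusted p 0.0731) and Ptgs2 at 2.15 (SE 0.69, adjusted p 0.0748). Steap4 stood at -0.33 (SE 0.20, adjusted p 0.268), Hp at 0.19 (SE 0.25, adjusted p 0.593) and Saa3 at -0.01 (SE 0.26, adjusted p 0.974). Lcn2, Ptges and Ptgs2 were higher in siPKM2 in all 3 numbers, which makes 3 of 6 genes against 30.5% of all genes tested.

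The within-number CPM ratios of siPKM2 over siNC show how the genes differed among themselves. For Ptgs2 the ratio was 9.98 in replicate 1 (exact 95% counting interval 8.92 to 11.2), 1.14 in replicate 2 (1.11 to 1.17) and 8.32 in replicate 3 (6.50 to 10.8). The large ratios were thus in the libraries where the siNC level was low, and the interval of replicate 2 did not overlap the other two. With 1 pair at the high level, the difference between replicate 2 and the other numbers could not be tested over samples.

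Lcn2 also had its smallest ratio in replicate 2, with 1.78 in replicate 1 (interval 1.54 to 2.06), 1.17 in replicate 2 (1.16 to 1.18) and 2.21 in replicate 3 (1.98 to 2.48). So did Ptges, with 1.35 (1.19 to 1.54), 1.08 (1.04 to 1.11) and 1.53 (1.39 to 1.69). Steap4 was on the other side of 1 in the lower libraries, with 0.615 in replicate 1 (0.494 to 0.762), 1.17 in replicate 2 (1.14 to 1.20) and 0.662 in replicate 3 (0.601 to 0.728). Hp had 0.664 in replicate 1 (0.543 to 0.810), 1.69 in replicate 2 (1.65 to 1.73) and 1.21 in replicate 3 (1.13 to 1.28), so its libraries did not share a direction.

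For the remaining genes the ratio rests on replicate 2 or on few counts. Saa3 stood at 0.827 in replicate 2 (0.819 to 0.836) and at 1.84 in replicate 3 (0.984 to 3.56), where it had 17 and 30 counts. In replicate 2 the ratio was 0.561 for Nos2 (0.543 to 0.579), 1.60 for Saa1 (1.32 to 1.96), 2.0 for Saa2 (1.68 to 2.38) and 2.89 for Orm1 (1.85 to 4.64). Inside that pair of libraries, serum amyloid genes thus stood on both sides of 1, and Nos2 was the lowest ratio of the 10. These are ratios of single libraries, with no replicate check.

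**Figure D4:**
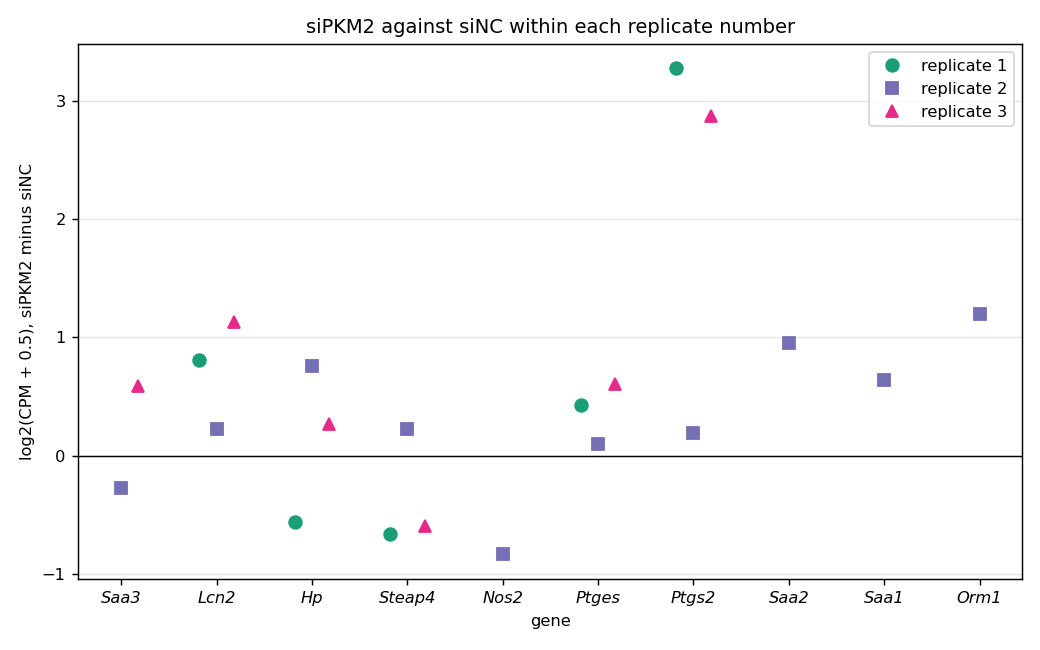
siPKM2 minus siNC as a difference of log2(CPM + 0.5) within each replicate number, with 1 symbol per number, for every pair in which both libraries had more than 3 counts. Ptgs2 lies at 3.27 and 2.87 in replicates 1 and 3 and at 0.19 in replicate 2, while Steap4 lies below 0 in replicates 1 and 3 and above it in replicate 2.

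Both replicate 2 libraries were then left out. With the block and the remaining 4 libraries, which leaves 1 residual degree of freedom, Ptgs2 was called, at a log2 fold change of 3.21 (SE 0.11, edgeR adjusted p 4.91e-05). It was the only one of the 6, where 4.94% of 15185 genes were called higher and 5.85% lower. Without the fold threshold 4 of the 6 had an adjusted p under 0.05, as did 39.1% of all genes: Ptgs2, Lcn2 at 0.99 (SE 0.125, adjusted p 0.0017), Ptges at 0.52 (SE 0.105, adjusted p 0.00953) and Steap4 at -0.65 (SE 0.11, adjusted p 0.00567). Hp at -0.06 (adjusted p 0.823) and Saa3 at 0.49 (adjusted p 0.557) did not pass. Without the block, those 4 libraries gave Ptgs2 a log2 fold change of 3.25 (SE 1.02, adjusted p 0.123), so its call depended on the pairing.

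Nos2, Saa1, Saa2 and Orm1 could be fitted only when no gene was filtered out. With the block and without the filter, an alternative added after seeing that they had not passed it, 3 of the 10 genes had an adjusted p under 0.05 against 14.4% of 28059 genes. These were Ptgs2 at 2.15 (adjusted p 0.0138), Lcn2 at 0.72 (adjusted p 0.00778) and Nos2 at -0.81 (SE 0.21, adjusted p 0.0249). The Nos2 value rests on replicate 2, since its other libraries had 3 counts or fewer. Its fold change is thus the ratio of 1 pair of libraries, and its adjusted p measures no spread between pairs. Saa2 at 1.00 (adjusted p 0.0934), Saa1 at 0.55 (adjusted p 0.646) and Orm1 at 0.09 (adjusted p 0.979) did not pass.

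The neighbouring genes of each pathway were described from lists, with the block and the call rule above. These lists were chosen with earlier results of these data known, so the counts below are descriptions and not tests of a list. Among 12 tested members of a list of 24 other acute-phase genes, 5 were called higher in siPKM2 and 0 lower, against 2.65% higher and 3.18% lower of all genes tested. The median log2 fold change was 0.60 against -0.01 for all genes tested. Without replicate 2 it was again 5 and 0, against 4.94% and 5.85% of all genes. Serpina3n, a protease inhibitor, rose by 1.73 (SE 0.255, adjusted p 0.0158), its TPM going from 35.1, 113 and 29.0 to 87.8, 287 and 157. Mt2, a metal-binding metallothionein, rose by 1.99 (adjusted p 0.027), from 114, 2082 and 203 TPM to 820, 3447 and 1076 TPM. The others were Mt1 (1.09, adjusted p 0.0315), Serpina3m (2.32, adjusted p 0.0473), which is close in sequence to its neighbours and low at 0.10 to 6.17 TPM, and the endotoxin co-receptor gene Cd14 (1.35, adjusted p 0.0432). Lbp, whose product binds endotoxin, had a replicate 2 difference of 3.51 in siNC and 4.10 in siPKM2 on the log2(CPM + 0.5) scale, from 11.5, 238 and 31.1 TPM in siNC.

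In the list of 22 other prostaglandin pathway genes, 18 were tested and 3 were called higher and 0 lower (all genes 2.65% and 3.18%), with a median log2 fold change of 0.00. Without replicate 2 it was 4 and 1 (all genes 4.94% and 5.85%). The called genes act at the start, the receptor and the end of the pathway. Pla2g2e, a secreted phospholipase, rose by 2.27 (SE 0.56, adjusted p 0.0415), from 1.15, 4.6 and 0.66 TPM to 6.73, 5.61 and 8.21 TPM. Hpgd, which inactivates prostaglandin E2, rose by 1.68 (SE 0.25, adjusted p 0.0163), from 5.29, 2.72 and 3.64 TPM to 24.9, 5.35 and 11.1 TPM. Ptger2, a receptor for prostaglandin E2, rose by 1.69 (adjusted p 0.0298) at levels of 0.09 to 1.28 TPM. Hpgd was thus lowest in replicate 2 of each group, opposite to Ptgs2 and Ptges. Ptges3 and Cbr1, the most abundant of the list, stood at 0.15 (adjusted p 0.331) and -0.08 (adjusted p 0.578). Slco2a1, the prostaglandin transporter gene, stood at 0.24 (adjusted p 0.0754), and Ptgir, the prostacyclin receptor gene, at -0.13 (adjusted p 0.831). In replicate 2 Slco2a1 exceeded the other libraries by 2.31 in siNC and 2.39 in siPKM2.

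Among 15 tested genes of 19 for nitric oxide and arginine, 0 were called higher and 1 lower (all genes 2.65% and 3.18%), with a median of 0.24. Without replicate 2 it was 2 and 1 (all genes 4.94% and 5.85%). Ddah2, which breaks down an inhibitor of nitric oxide synthases, fell by 1.27 on the log2 scale (SE 0.19, adjusted p 0.0164), from 29.5, 57.1 and 36.3 TPM to 8.75, 27.6 and 19.3 TPM. Gch1, which makes the cofactor of nitric oxide synthases, had the pattern of Ptgs2: it stood at 1.33, 28.6 and 1.40 TPM in siNC and at 4.95, 29.1 and 4.77 TPM in siPKM2 (log2 fold change 1.13, SE 0.40, adjusted p 0.0925). With the block and without replicate 2, Gch1 was called, at 1.855 (SE 0.213, edgeR adjusted p 0.00122). Slc7a2, an arginine transporter, stood at 47.1, 207 and 53.8 TPM in siNC and at 61.1, 192 and 72.7 TPM in siPKM2 (adjusted p 0.23). Odc1, which makes putrescine from ornithine, passed the adjusted p but not the fold, at 0.91 (adjusted p 0.0133). Nos1, another nitric oxide synthase, lay at 0.01 to 1.75 TPM (adjusted p 0.168).

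Of the iron, haem and STEAP genes, 15 of 16 were tested, with 1 called higher, 1 lower (all genes 2.65% and 3.18%) and a median of 0.20. Without replicate 2 it was 2 and 1 (all genes 4.94% and 5.85%). Like those for nitric oxide, these counts are near the background and are no result about the list. Tfrc, the transferrin receptor gene, rose by 1.04 (SE 0.24, adjusted p 0.0341), and Slc40a1, the iron exporter ferroportin, fell by 1.30 on the log2 scale (SE 0.27, adjusted p 0.0278). The ferritin gene Fth1 had 2721, 14250 and 3304 TPM in siNC and 3604, 12330 and 4443 TPM in siPKM2 (adjusted p 0.306), and Ftl1 had an adjusted p of 0.398. Slc39a8, a zinc and iron importer, resembled Steap4 in replicate 2, at 24.7 and 33.9 TPM there and 0.54 to 2.83 TPM elsewhere (adjusted p 0.065).

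Of 25 genes for inducers, receptors and transcription factors of the acute-phase response, 20 were tested, with 4 called higher, 0 lower (all genes 2.65% and 3.18%) and a median of 0.45. Without replicate 2 it was 5 and 0 (all genes 4.94% and 5.85%). Il6 stood at 0.24, 65.0 and 0.82 TPM in siNC and at 9.82, 160 and 12.9 TPM in siPKM2, and rose by 2.62 (SE 0.66, adjusted p 0.0426). Its receptor gene Il6ra rose by 2.63 (SE 0.39, adjusted p 0.0156), from 1.27, 7.18 and 2.19 TPM to 12.8, 20.3 and 16.9 TPM, whereas the shared receptor subunit Il6st passed the adjusted p but not the fold, at -0.64 (adjusted p 0.0473). Lif, a cytokine that signals through Il6st, rose by 1.56 (adjusted p 0.0224), and Tlr4, the endotoxin receptor, by 1.34 (adjusted p 0.0162). Stat3 passed the adjusted p with a small difference of 0.38 (adjusted p 0.0306). Il1b lay at or below 0.23 TPM and was at 0 in replicate 2 of both groups. Tnf stood at 0, 0.52 and 0 TPM in siNC and at 0.05, 1.79 and 0 TPM in siPKM2. It was thus low but highest in replicate 2 of both groups, with 11 and 41 counts there. Neither gene passed the filter, so neither was tested.

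**Figure D5:**
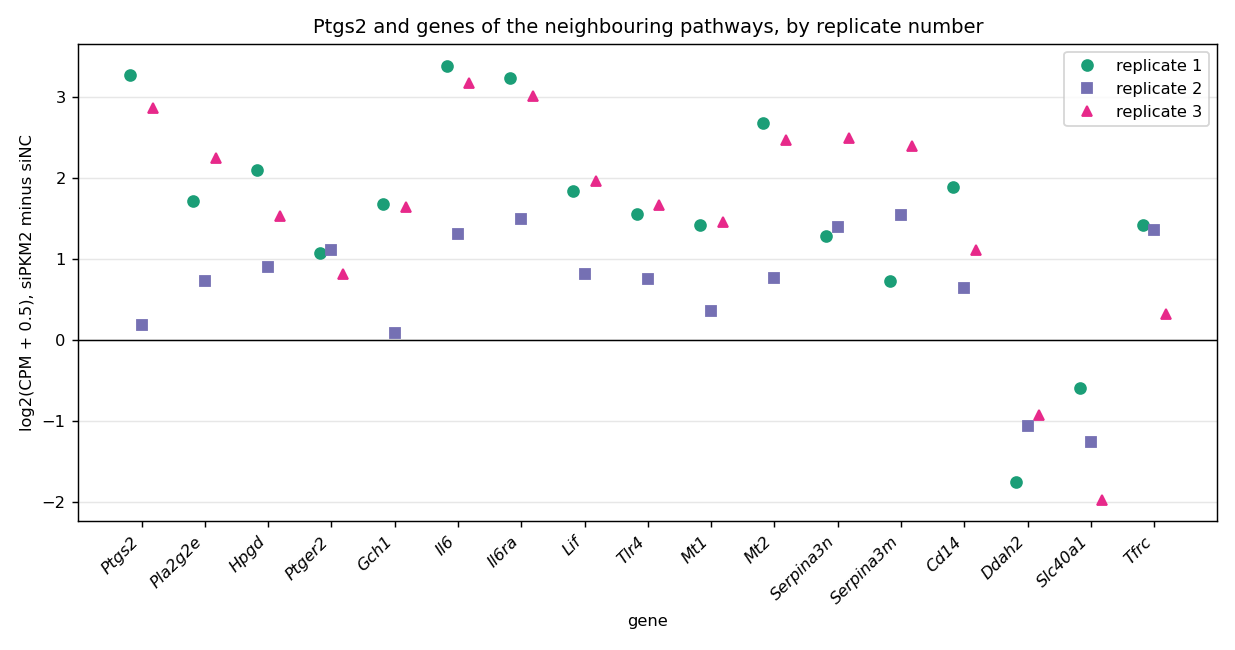
siPKM2 minus siNC as a difference of log2(CPM + 0.5) within replicate 1 (circle), 2 (square) and 3 (triangle), for Ptgs2, the genes called with the replicate block in the 5 lists of neighbouring genes, and Gch1, which was not called in that fit. Ptgs2 and Gch1 lie near 0 in replicate 2 (0.19 and 0.08) and well above it in replicates 1 and 3, Il6 and Il6ra are above 1 in all 3 numbers, and Ddah2 and Slc40a1 are below 0 in all 3.

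The profile of the 6 tested genes across the libraries was taken as the mean of their standardised log2 CPM. Ptges (r = 1.00), Lcn2 (r = 1.00) and Saa3 (r = 0.99) lay closest to it, then Steap4 (r = 0.96) and Hp (r = 0.90), and Ptgs2 (r = 0.77) was the farthest. Outside the 10 genes, the 8 most alike over the 6 libraries were Cp, St3gal1, 1110008P14Rik, Slco2a1, Cpne2, Ifi27l2a, Tgm1 and Cyyr1, all with r of at least 0.995. Cp, the gene of the copper-carrying acute-phase protein ceruloplasmin, stood at 51.7, 277 and 69.0 TPM in siNC and at 68.2, 284 and 80.0 TPM in siPKM2. Ifi27l2a, an interferon-inducible gene, stood at 9.33, 431 and 13.8 TPM in siNC and at 11.5, 440 and 27.0 TPM in siPKM2. With 6 libraries of which 2 stand apart, such correlations are set mainly by replicate 2: 362 genes had an r over 0.95. They are given as a description of likeness.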

How the data were processed

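RNA sequencing of 6 libraries of primary mouse chondrocytes (3 siNC, 3 siPKM2) was analysed from the deposited table. The authors deposited estimated counts, some fractional, and TPM values per library and gene. The submitters' processing notes name mm9 and edgeR, and the table is named for DESeq2; the aligner and counting tool are not given in the sources used here. The authors' own fold changes and p-values were not used. Estimated counts were rounded to whole numbers. Gene positions come from GENCODE M21 (GRCm38), in which 94.0% of 55416 identifiers were found, and promoter windows from RefSeq (GRCm38.p6).

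Analysis used R 4.3.3, edgeR 4.0.16, DESeq2 1.42.0 and Biopython 1.88. Genes passing filterByExpr (15269) were compared with TMM factors and the edgeR quasi-likelihood test, and p-values were adjusted by Benjamini-Hochberg across these genes; a call required a fold over 2 and an adjusted p under 0.05. The procedure was run on simulated counts whose spread was not taken from these libraries, which checks the code and not the calls here. Levels are CPM, on the log2 scale with 0.5 added, or deposited TPM between genes. Depth was 22316996 to 25691029 counts per library. No libraries of a group were duplicates, since at least 53.0% of genes differed beyond sampling noise.

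The labels give both groups the numbers 1, 2 and 3. Deviations from group means correlated across genes at 0.72, 0.79 and 0.72 for equal numbers and between -0.70 and 0.22 for others, so the numbers were taken to pair the libraries, on the data's evidence.

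The members and lists were chosen with earlier results of these data known. From each list the text names the 2 genes highest in TPM, the 2 with the largest mean within-number ratio, the 2 with the largest replicate 2 difference and all called with the block; Il1b, Tnf and the likeness genes' levels were added after their values were seen. Alternatives were other size factors, DESeq2, other filters, pseudocounts, left-out libraries and the block.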

Additional observations from a re-analysis of the deposited data

How the results depend on the processing

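Without the block 0 genes were called. The count over all genes was 890 with the replicate block, 3 with upper-quartile factors, 442 with DESeq2, 9 without a filter, 3 with at least 10 counts in every library and 507 without both replicate 2 libraries. It was 1639 with the block and without replicate 2, and 1135 with the block and no filter, an alternative chosen after seeing the data. Leaving out 1 library gave 0 to 105 calls, the 105 without siNC replicate 2. Of the members 1 (Ptgs2) was called under each of those last block alternatives, and 0 under the others, where DESeq2 gave no adjusted p for Saa3, Lcn2 and Ptges.

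With 1 library left out, log2 fold changes without the block ranged from -10.55 to 10.98 for Saa3, -5.58 to 6.86 for Lcn2, -3.32 to 2.87 for Steap4, -1.85 to 2.57 for Ptges, -1.61 to 2.47 for Hp and -0.69 to 4.55 for Ptgs2. The lowest value came without siPKM2 replicate 2 and the highest without siNC replicate 2 in each gene. Directions also turned without both replicate 2 libraries for Saa3 (0.68, and 0.49 with the block) and Steap4 (-0.62, and -0.65 with the block), and for Hp with the block (-0.060). Steap4 was at 0.16 without the block, -0.33 with the replicate block and -0.33 with the block and no filter. The causes were not tested. Of 86 comparisons of a member's fold change under an alternative, 21 turned direction and 60 kept their direction and side of the threshold. The block changed no other call among the members.

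All 84 alternatives for within-number ratios stayed within the spread between numbers. Of 80 for the replicate 2 difference 29 moved beyond it, by up to 2.06 (Saa1 in siPKM2 with 0.1 CPM added), and these were in Saa1, Saa2, Saa3, Nos2 and Orm1, whose lower libraries held few counts. Depth limits those 5 genes to the counting intervals given.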
